A study of Mus musculus with 11 samples.

Results

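Glucocorticoid-responsive genes were followed across the cell classes of the mouse hindbrain and upper spinal cord in single-nucleus RNA-seq libraries. The group comprised 10 genes chosen by symbol, Fkbp5, Hif3a, Etnppl, Sgk1, Tsc22d3, Zbtb16, Per1, Pdk4, Cdkn1a and Nr3c1, of 25827 genes in the count matrices. They were picked because they were thought to move together across classes within a library and to differ between experimental autoimmune encephalomyelitis (EAE) and naive mice. Both of those features are therefore given as a description, and the estimates of that contrast are printed without support drawn from them. The rule did not name the difference between genotypes within EAE, which was tested, although the genes were chosen with earlier results of these data known. Hif3a had also been singled out by the study itself from these same libraries, so its difference between genotypes is not independent evidence.

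Each library came from 1 male mouse aged 8 to 12 weeks. Nuclei were isolated from the cerebellum, the brainstem of a single hemisphere and the cervical cord, and sorted on a DNA stain. All 11 mice carried loxP sites in both copies of Il12rb2, which encodes a subunit of the receptor for interleukin-12. Those of the control genotype, Il12rb2fl/fl (fl), had no Cre, whereas NestinCre/+Il12rb2fl/fl littermates (NestinCre) expressed Cre from the Nestin promoter, which is active in precursors of neurons, astrocytes and oligodendrocytes but not of microglia. EAE was induced with 200 µg of a myelin oligodendrocyte glycoprotein peptide in adjuvant with pertussis toxin, and tissue was taken on day 10, at the onset of symptoms. Naive mice were taken at steady state. Each genotype had 4 libraries from EAE mice. Naive mice gave 2 libraries of fl, numbered 2 and 3 in the labels, and a single NestinCre library, numbered 2. Sequencing took 3 runs, whose numbers here are labels and do not follow the order in which the study lists them. Run 1 covered EAE replicates 1 to 3 of either genotype. Run 2 covered EAE replicate 4 of either genotype together with fl naive 2. The remaining naive mice were in run 3.

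The matrices held 13120 to 22951 barcodes and 40761007 to 86063464 unique molecular identifiers (UMIs) per library. Any pair of libraries shared 47 to 140 barcode sequences. After filtering, 158339 nuclei remained, of which 10.07% were not assigned to a class. The 14 classes with at least 10 nuclei in every library were used, and rankings of classes hold among these 14 only. Levels are given as CPM, the UMIs of a gene per 1000000 UMIs of that class in that library. The file headers name Cell Ranger 7.0.0 for run 1, which held 6 of the 8 EAE libraries, and 6.0.2 for the other runs, which held all naive libraries. These versions differ in whether intronic reads are counted by default. The paper states that intronic reads were counted for its single nuclei, and names version 6.0.2 only. Levels set side by side across runs come from different versions, and the part of this in differences between EAE and naive was not tested. The deleted exon of Il12rb2 cannot be seen in counts over the whole gene, and Il12rb2 was at 10.1 to 20.5 CPM in the named neurons of all libraries. The genotype labels were therefore not checked by this gene.

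Glucocorticoids released by the adrenal cortex bind the glucocorticoid receptor, encoded by Nr3c1, which moves to the nucleus and binds DNA at paired half-sites. Genes induced in this way include a co-chaperone that lowers the receptor's hormone affinity (Fkbp5), transcriptional regulators (Tsc22d3, Zbtb16, Per1), a kinase (Sgk1), a regulator of fuel use (Pdk4) and an inhibitor of the cell cycle (Cdkn1a). Corticosterone in mice varies with the time of day and rises with stress and with inflammation. Per1 is also a core clock gene, and Cdkn1a is also a target of p53.

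The palindromic form of the receptor's site was searched as GNACANNNTGTNC on both strands within 2000 bases either side of the canonical transcript start of each gene. It was present for 4 of the 10 genes, compared with 6.288% of 21770 windows of the same length around the starts of protein-coding genes. The matches are shown because they are the only sequence feature the group was searched for. They are printed from GRCm39 on the plus strand, 5′ to 3′, with the match in capitals.

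Fkbp5, chr17:28703919-28703947, intron, 1219 bases after the start of this minus-strand gene: caagcgctGTACACCCTGTCCcgagcccc

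Per1, chr11:68987895-68987923, 1359 bases upstream: agccaagaGAACACGATGTTCcctagtgc

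Per1, chr11:68990235-68990263, intron, 981 bases after the start: tcaggctgGAACATCCTGTTCtcagcgct

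Sgk1, chr10:21869593-21869621, 958 bases upstream: tgcggaaaGAACAGAATGTTCtcggagat

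Cdkn1a, chr17:29313666-29313694, intron, 942 bases after the start: tttggcggGCACAGTATGTTCccagggaa

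The other 6 genes did not hold these letters in this window. A match is a description of the sequence, and occupancy was not measured here.

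The receptor gene, Nr3c1 (ENSMUSG00000024431), passed the filter on low counts in all 14 classes and was highest in microglia, the resident phagocytes of the brain. In microglia it was at 272, 345, 386 and 363 CPM in fl EAE 1 to 4 and at 365, 357, 444 and 335 CPM in NestinCre EAE 1 to 4. Naive mice were at 393, 255 and 291 CPM, always in the order of fl 2, fl 3 and NestinCre 2. All groups overlapped, with means of 341 ± 49.1 (SD, n = 4), 375 ± 47.5 (SD, n = 4) and 313 ± 71.8 CPM (SD, n = 3 naive libraries of both genotypes).

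Fkbp5 (ENSMUSG00000024222, chr17:28618058-28737521) was highest in vascular leptomeningeal cells or fibroblasts, the stromal cells of vessels and meninges. It was at 608, 1028, 451 and 960 CPM in fl EAE, at 968, 788, 265 and 885 CPM in NestinCre EAE and at 65.1, 353 and 816 CPM in naive mice. Fl naive 2 was far below the other libraries, and NestinCre naive 2 was within the range of EAE. This class was thin, with 11 to 51 nuclei and 30458 to 172692 UMIs per library.

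Across the other classes, Fkbp5 formed a gradient from non-neuronal to neuronal cells. Its mean over the 11 libraries was 576 ± 405 CPM (SD) in microglia, 128 ± 105 in mature oligodendrocytes, 95.3 ± 57.3 in oligodendrocyte progenitor cells and 59.8 ± 64.2 in astrocytes. It was 13.1 CPM in granule cells and 5.69 CPM in Purkinje cells. Most neighbours in this order differed by less than the SD of either or both, so the order is coarse. Only microglia and mature oligodendrocytes, inhibitory neurons (27.3 ± 4.94) and molecular layer interneurons (17.2 ± 9.19), and granule cells (SD 7.35) and Purkinje cells (SD 1.94) differed by more than both SDs.

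Among the transcriptional regulators, Tsc22d3 (ENSMUSG00000031431, chrX:139440091-139501408), which encodes the anti-inflammatory protein GILZ, was highest in Bergmann glia, the radial astrocytes of the cerebellar cortex. It was at 361, 265, 251 and 475 CPM in fl EAE, at 363, 284, 227 and 404 CPM in NestinCre EAE and at 158, 161 and 171 CPM in naive mice. All 8 EAE libraries lay above all 3 naive libraries. The naive values had a mean of 164 ± 6.72 CPM (SD, n = 3) but rested on 13, 45 and 44 UMIs. In fl naive 2 the exact 95% Poisson interval for counting error was 84.3 to 271 CPM. It is wider than that SD and reaches into the EAE range, so the separation is not firm for that library. In NestinCre naive 2 the interval was 124 to 230 CPM, which also reaches the lowest EAE library.

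Zbtb16 (ENSMUSG00000066687, chr9:48563141-48748664), a zinc-finger repressor also known as PLZF, was highest in vascular cells or fibroblasts. There it was at 923, 406, 265 and 725 CPM in fl EAE, at 942, 328, 118 and 669 CPM in NestinCre EAE and at 13, 199 and 330 CPM in naive mice. The EAE groups overlapped each other and the naive libraries, and fl naive 2 was again the lowest. Pooled over libraries, Zbtb16 in Bergmann glia and mature oligodendrocytes stood at 92.2% and 89.1% of its level in vascular cells or fibroblasts. It rested on 965 and 18117 UMIs in those classes and on 257 in the vascular class, so its rank among them is not firm.

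Per1 (ENSMUSG00000020893, chr11:68986035-69002300), a repressor of the circadian clock, was likewise highest in vascular cells or fibroblasts. It was at 42.0, 54.1, 53 and 97.9 CPM in fl EAE, at 183, 164, 29.5 and 78.7 CPM in NestinCre EAE and at 52.1, 66.2 and 46.3 CPM in naive mice. NestinCre EAE 1 and 2 had the highest values, but these rested on 7 and 5 UMIs of 43 in all, with 1 to 8 per library, so no library can be set apart at this depth. Pooled over libraries, Per1 in astrocytes stood at 79.4% of its level in vascular cells or fibroblasts, on 206 UMIs.

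Hif3a (ENSMUSG00000004328, chr7:16764918-16796352), a hypoxia-inducible factor subunit, and Etnppl (ENSMUSG00000019232, chr3:130411097-130431441), an enzyme that breaks down phosphoethanolamine, were astroglial. Hif3a was at 241 ± 88.6 CPM in Bergmann glia and 204 ± 66.0 CPM in astrocytes (SD, n = 11). Its level in Bergmann glia was 246, 255, 220 and 342 CPM in fl EAE, 160, 292, 243 and 341 CPM in NestinCre EAE and 24.3, 251 and 280 CPM in naive mice. Fl naive 2 held 2 UMIs of Hif3a in this class, with an exact 95% Poisson interval of 2.95 to 87.9 CPM for counting error, and the other 10 libraries overlapped.

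Etnppl was at 605, 545, 421 and 656 CPM in astrocytes of fl EAE mice, at 499, 577, 436 and 514 CPM in NestinCre EAE and at 82.2, 325 and 560 CPM in naive mice. Etnppl was at 242 CPM in Bergmann glia on average, and its mean was at most 2.72 CPM in the other 12 classes. The highest single library there was NestinCre EAE 3, at 29.5 CPM in the thin vascular class. As for Hif3a, only fl naive 2 stood far from the rest in astrocytes.

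Sgk1 (ENSMUSG00000019970, chr10:21758083-21875802), a kinase that regulates ion transport, differed from the rest of the group in being highest in a neuron. In molecular layer interneurons of the cerebellum it was at 566, 554, 556 and 515 CPM in fl EAE, at 495, 516, 553 and 503 CPM in NestinCre EAE and at 548, 500 and 543 CPM in naive mice. These 11 values spanned a narrow range, with a mean of 532 ± 26 CPM. In mature oligodendrocytes Sgk1 varied widely instead, at 342, 544, 313 and 568 CPM in fl EAE, 747, 785, 350 and 669 CPM in NestinCre EAE and 23.1, 96.0 and 129 CPM in naive mice. There, every naive library lay below every EAE library.

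Pdk4 (ENSMUSG00000019577, chr6:5483097-5496339), which restrains the entry of pyruvate into the citric acid cycle, and Cdkn1a (ENSMUSG00000023067, chr17:29309936-29319701) were scarce. Pdk4 in mature oligodendrocytes was at 25.8, 17.6, 13.5 and 43.0 CPM in fl EAE, 80.3, 60.1, 16.3 and 26.6 CPM in NestinCre EAE and 5.84, 12.2 and 12.3 CPM in naive mice. Cdkn1a in Bergmann glia rested on 50 UMIs in all, at 25.1, 16.3, 0 and 23.8 CPM in fl EAE, 14.5, 55.3, 15.2 and 36.7 CPM in NestinCre EAE and 12.2, 14.3 and 15.6 CPM in naive mice. The EAE groups overlapped for both genes.

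**Figure D1:**
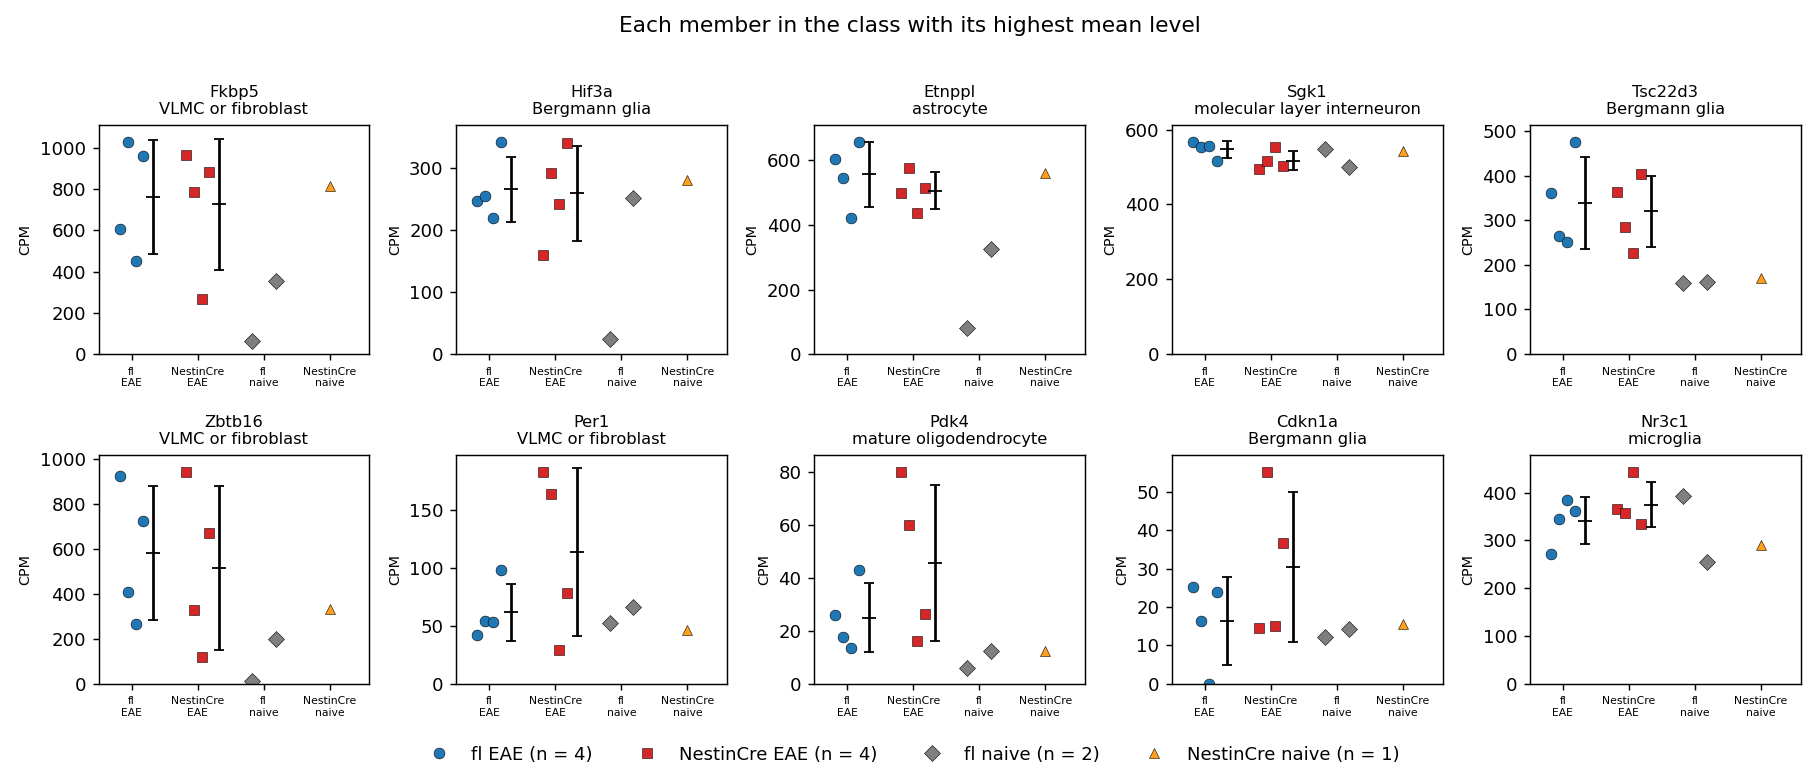
CPM of each gene in the class with its highest mean, 1 symbol per library, with the mean and SD of the 4 libraries of each EAE group (bars). VLMC is vascular leptomeningeal cell. Fl naive 2 (left grey symbol) is far below the rest for Fkbp5, Hif3a, Etnppl and Zbtb16, and Sgk1 in molecular layer interneurons is level across the 11 libraries.

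Cell classes of a library were next compared for whether they moved together. For each gene and class passing the filter over all libraries, 92 pairs in all, the level was expressed as log2(CPM + 1) minus the class mean of the 11 libraries. Fl naive 2 was above that mean in 20.7% of pairs, fl EAE 3 in 27.2%, fl naive 3 in 30.4% and NestinCre naive 2 in 33.7%. NestinCre EAE 1, 2 and 4 were above it in 75.0%, 78.3% and 85.9%. NestinCre EAE 3 was at 45.7%, and fl EAE 1, 2 and 4 at 66.3%, 62.0% and 72.8%. For all genes these shares ranged from 44.2% to 63.3% over libraries. Fl naive 2 was the lowest library in 44 of the 92 pairs and NestinCre EAE 1 the highest in 35.

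Zbtb16 moved most uniformly. It was above the class mean in 12 of 12 classes in NestinCre EAE 1, 2 and 4 and in fl EAE 4, and in 0 of 12 in both fl naive libraries. It was above in only 1 of 12 classes in NestinCre EAE 3 and in 2 of 12 in fl EAE 3. Per1 was above the mean in 13 of 13 classes in NestinCre EAE 1 and 2 and in fl EAE 4, and in 0 of 13 in fl EAE 3 and fl naive 2. Fkbp5 was above it in 12 of 12 classes in NestinCre EAE 4, in 11 of 12 in NestinCre EAE 1 and 2, in 2 of 12 in fl EAE 3 and NestinCre EAE 3 and in 0 of 12 in fl naive 2. In the remaining libraries the split varied. Zbtb16 was above the mean in 9 of 12 classes in fl EAE 1, in 6 in fl EAE 2 and in 5 in NestinCre naive 2. Per1 was above it in 12 of 13 classes in NestinCre EAE 4, in 9 in fl EAE 1, in 7 in fl EAE 2, in 6 in NestinCre naive 2, in 5 in fl naive 3 and in 4 in NestinCre EAE 3. Fkbp5 was above it in 9 of 12 classes in fl EAE 2, in 7 in fl EAE 4, in 5 in fl EAE 1, in 4 in fl naive 3 and in 2 in NestinCre naive 2. Libraries of the same group could lie on opposite sides, as NestinCre EAE 3 did from the other 3.

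The receptor gene lay opposite to the others in some libraries only. Nr3c1 was above the mean in 13 of 14 classes in fl naive 2, and in 4 and 3 of 14 in NestinCre EAE 1 and 2. In fl EAE 4, where most pairs were high, it was also above in 11 of 14, and in fl naive 3, where most were low, it was above in 3 of 14. In fl EAE 3, where most were also low, it was above in 11 of 14, and in NestinCre EAE 3 in 10 of 14. As a description, the correlation between classes over the 11 libraries had a median r of 0.73 for Zbtb16, 0.67 for Hif3a, 0.65 for Fkbp5 and 0.64 for Per1. It was 0.52 for Etnppl (4 classes), 0.46 for Cdkn1a, 0.32 for Pdk4 (3 classes), 0.23 for Tsc22d3, 0.21 for Nr3c1 and 0.18 for Sgk1. Over 11749 genes measured in at least 5 classes the median was 0.17 and the 95th percentile 0.51. Classes of a library share its preparation, sequencing run and any free RNA, whose part in these values was not tested.

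**Figure D2:**
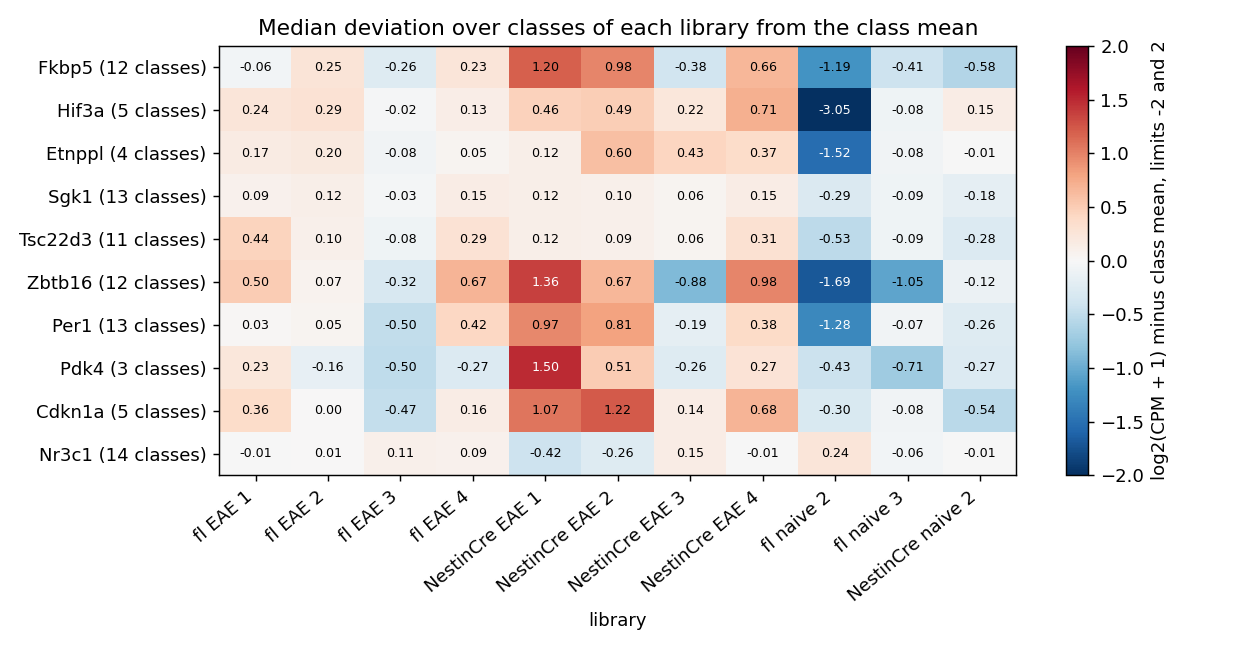
Median over classes of log2(CPM + 1) minus the class mean, for each gene (y axis, with the number of classes) and library (x axis); colours are limited to −2 and 2. Fl naive 2 is below the mean for 9 genes and above it for Nr3c1, while NestinCre EAE 1 and 2 are above it for 9 genes and below it for Nr3c1.

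The genes most like Fkbp5 over the 11 libraries were named in the 3 classes of granule cells, mature oligodendrocytes and astrocytes, by the Pearson correlation of log2(CPM + 1). In granule cells they were Foxo1 (r = 0.97), Cebpd (0.94), Cd14 (0.94), Cebpb (0.93) and Gm49839 (0.93), with Zbtb16 ranked 9. In mature oligodendrocytes they were Nfkbia (0.99), Dennd5b (0.98), Arrdc2 (0.98), Gm49839 (0.98) and Cab39l (0.98), with Sgk1 ranked 28. In astrocytes they were Lifr (0.97), Susd4 (0.93), Irak2 (0.91), Mt1 (0.91) and Mt2 (0.90), again with Zbtb16 close, at rank 10. Nr3c1 had r of −0.42, −0.54 and −0.51 with Fkbp5 in the same classes.

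Fl naive 2 also differed in its clock genes. In granule cells, 11 of 14 listed clock genes were lowest of all libraries in fl naive 2 and the remaining 3 (Arntl, Clock and Npas2, which encode activators of the clock) were highest there. Arntl was at 100.7 CPM in fl naive 2 and at 33.5 to 55.9 CPM in the other libraries, and Per2 was at 10.8 against 22.0 to 62.8 CPM. Fl naive 2 was lowest for 8 of the 14 in mature oligodendrocytes but for 1 of 14 in astrocytes. Other libraries stood out as well. In astrocytes NestinCre EAE 1 and 2 and NestinCre naive 2 were lowest for 5, 3 and 3 of the 14. Dbp in astrocytes was at 17.8 and 30.9 CPM in NestinCre EAE 1 and 2 and at 49.3 to 124 CPM in the other libraries. NestinCre naive 2 was highest for 7 in mature oligodendrocytes, and NestinCre EAE 2 for 6 in granule cells. These genes were looked at per library after the pattern of fl naive 2 had been seen. The hour of tissue collection was not given in the sources used here, and its part in the levels of the group was not tested.

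The comparison of EAE with naive mice is given as a description. Because only run 2 held both states, with the run in the model this contrast rested on fl naive 2. The naive libraries then left no residual spread, so the SE and p-values of this contrast hold no spread between naive mice. Of 140 combinations of gene and class, 92 passed the filter, and 78 of these were higher and 14 lower in EAE. The median log2 fold change was 1.15, and 1.06 over the 87 pairs in which fl naive 2 held at least 1 UMI, compared with 0.01 over all genes and classes. Of the 92 pairs, 5 were past an adjusted p of 0.05 in edgeR's quasi-likelihood test, where the rate for all genes was 0.108% and 0.037% in the higher direction. Since the genes were chosen for this contrast, nothing is read from that count.

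In astrocytes the pairs past the threshold were Hif3a (log2 fold change 3.46 ± 0.58, SE) and Etnppl (2.44 ± 0.44). In mature oligodendrocytes they were Hif3a (4.52 ± 0.75), Sgk1 (4.49 ± 0.57) and Per1 (1.99 ± 0.38). The measured levels put most of these differences on 1 library. Hif3a in astrocytes was at 177 to 264 CPM in the 8 EAE libraries and at 211 and 238 CPM in fl naive 3 and NestinCre naive 2, but at 21.9 CPM in fl naive 2 (4 UMIs, interval 5.98 to 56.2 CPM). Without the run term and without fl naive 2, an alternative chosen after the data had been seen, the log2 fold changes fell to 0.05 for Hif3a and 0.38 for Etnppl in astrocytes, and to 1.61 for Hif3a and 0.26 for Per1 in oligodendrocytes. For Sgk1 in mature oligodendrocytes the same alternative gave 2.33.

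By gene, the estimate was above 0 in 12 of 12 classes for Fkbp5 and Zbtb16 (medians of 2.02 and 2.21), in 13 of 13 for Per1 (1.99), in 11 of 11 for Tsc22d3 (0.90) and in 3 of 14 for Nr3c1 (−0.21). These signs come from the fit that ties EAE to naive mice through fl naive 2. With neither the run term nor fl naive 2, the median over the 92 pairs was 0.44 and 77 pairs kept their direction. Library fl naive 2 and the naive state cannot be told apart within run 2.

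**Figure D3:**
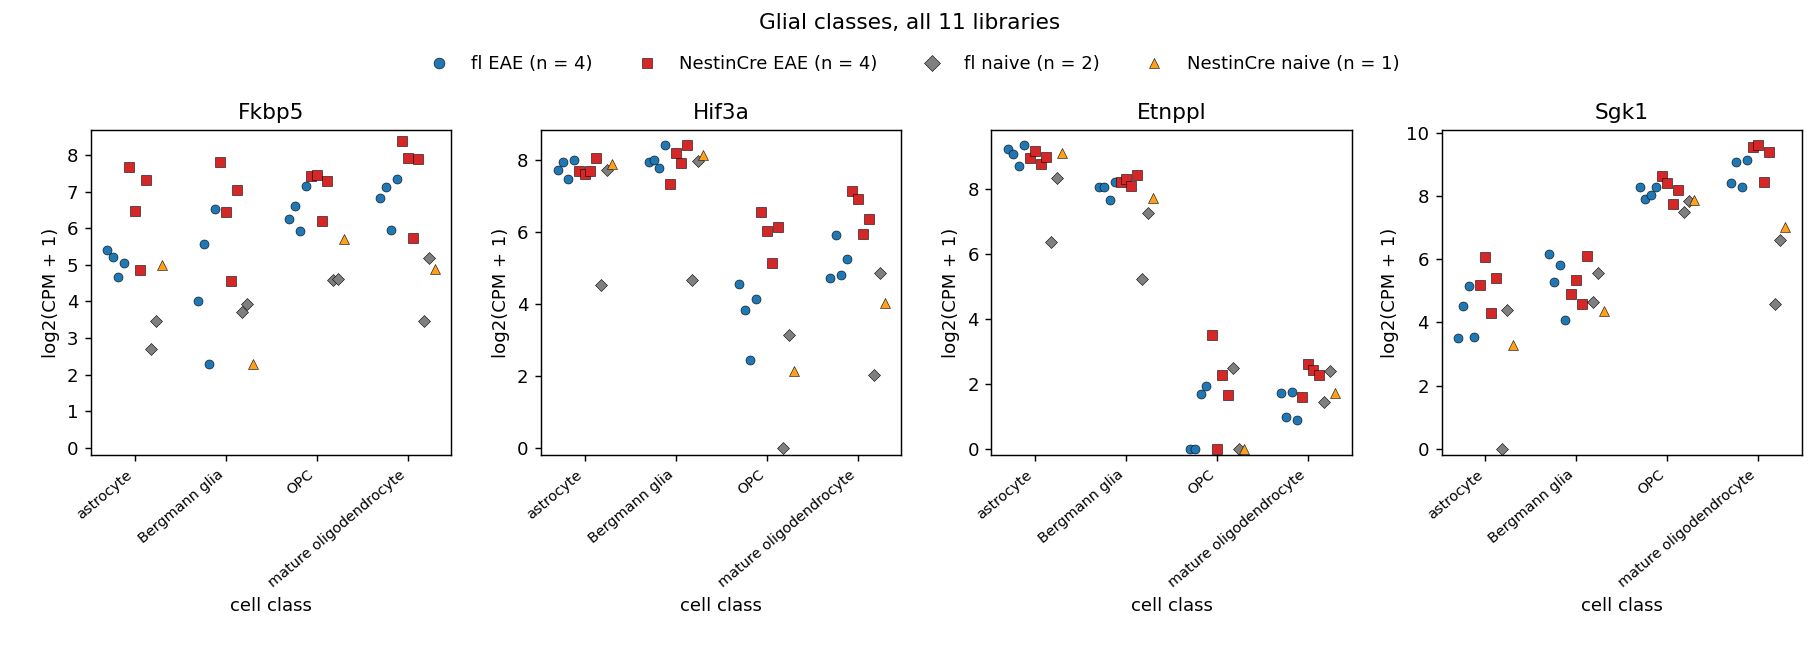
Level as log2(CPM + 1) of Fkbp5, Hif3a, Etnppl and Sgk1 in 4 glial classes, 1 symbol per library; OPC is oligodendrocyte progenitor cell. Sgk1 in mature oligodendrocytes and Fkbp5 in OPCs and mature oligodendrocytes separate naive from EAE libraries, Hif3a in OPCs and mature oligodendrocytes separates the 2 EAE genotypes, and Hif3a and Etnppl in astrocytes are low in fl naive 2. Fkbp5 in OPCs of naive mice rests on 5, 6 and 15 UMIs, so that separation is not firm.

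The last question was whether the group differed between the genotypes during EAE. No library came from mice with Cre and intact Il12rb2, so loss of the receptor and Cre itself cannot be told apart. The 8 EAE mice were compared with the run as a covariate, by edgeR's quasi-likelihood test on UMIs summed per mouse and class, adjusted by Benjamini-Hochberg within each class. Fkbp5 in astrocytes, and Hif3a in oligodendrocyte progenitor cells and mature oligodendrocytes, were higher in NestinCre mice. This was 3 of 77 pairs tested, with 0 lower, against a rate for all genes and classes of 1.01% in either direction and 0.826% in the higher direction. Hif3a in progenitors entered the test through its level in NestinCre mice, so the count itself supports nothing about the group. The receptor gene was past the threshold in 0 of its 12 classes.

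Hif3a in oligodendrocyte progenitor cells was at 22.5, 13.2, 4.44 and 16.6 CPM in fl EAE 1 to 4 and at 93.4, 64.6, 34.4 and 69.5 CPM in NestinCre EAE 1 to 4. The genotypes did not overlap. These values rested on 6, 4, 2 and 6 UMIs in fl and on 27, 18, 9 and 32 UMIs in NestinCre mice, so the pair passed the filter on low counts through the group in which it was high. NestinCre mice were higher by 2.32 ± 0.39 on the log2 scale (SE, adjusted p = 2.97e-04), against a rate of 0.84% of genes called in this class. In naive mice Hif3a was at 0, 7.87 and 3.42 CPM, and the 0 of fl naive 2 (0 of 215715 UMIs) allows up to 13.9 CPM by the limit of 3 counts, or 17.1 CPM by the exact 95% Poisson interval used above, for counting error only. With every gene of at least 1 count tested, so that this filter played no part, the log2 fold change was 2.30 (adjusted p = 1.07e-07). That fit called more pairs of the group in every contrast, so its smaller adjusted p is not read as added support. The pair failed the filter, and has no test, in run 1 alone and without NestinCre EAE 4. In the 7 leave-one-out fits that kept it the log2 fold change was 1.95 to 2.60.

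Hif3a in mature oligodendrocytes was at 25.5, 59.3, 27.3 and 37.1 CPM in fl EAE and at 139, 121, 61.0 and 80.7 CPM in NestinCre EAE. The genotypes did not overlap here either, although fl EAE 2 and NestinCre EAE 3 were close. The difference was 1.43 ± 0.29 on the log2 scale (SE, adjusted p = 0.0242, with 1.76% of genes called in this class). It was past the threshold within run 1 alone (1.58, adjusted p = 0.0233) but not without fl EAE 1 (0.101), fl EAE 3 (0.0702), NestinCre EAE 1 (0.0624) or NestinCre EAE 2 (0.0651), each an adjusted p. Naive levels were 3.05, 28.2 and 15.3 CPM.

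In the astroglia, where Hif3a was highest, no difference was detected between genotypes. The log2 fold change of Hif3a was 0.01 (95% interval −0.32 to 0.34) in astrocytes and −0.01 (−0.40 to 0.38) in Bergmann glia. In granule cells it was 0.53 ± 0.25 (SE, adjusted p = 0.562).

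Fkbp5 in astrocytes was at 41.2, 36.5, 24.2 and 31.8 CPM in fl EAE and at 202, 87.6, 28.0 and 160 CPM in NestinCre EAE. NestinCre EAE 3 lay among the fl libraries, so the groups overlapped, averaging 33.4 ± 7.23 CPM in fl and 119 ± 77.1 CPM in NestinCre mice (SD, n = 4). On the log2 scale NestinCre was higher by 1.80 ± 0.37 (SE, adjusted p = 0.0107), with 0.626% of genes called in this class. The call depended on the fit. The adjusted p was 0.144 in run 1 alone, 0.424 by DESeq2, 0.0775 with likely doublets kept, and 0.059, 0.114 and 0.129 without fl EAE 3, fl EAE 4 and NestinCre EAE 4. The direction was the same in each.

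Of the 77 pairs, 54 were higher and 23 lower in NestinCre EAE, with a median log2 fold change of 0.22 (0.002 over all genes). An unadjusted p below 0.05 was reached by 33.8% of the pairs, compared with 7.49% of all genes and classes. The pairs are not independent, since 8 mice supply all of them. The genes were also chosen with earlier results of these data known, and Hif3a in progenitors entered through its level in NestinCre mice. Nothing about the group is therefore read from this share. Fkbp5 was higher in 11 of 12 classes (median 0.68), Zbtb16 in 10 of 11 (0.18), Per1 in 8 of 9 (0.51), Cdkn1a in 3 of 3 (0.90) and Pdk4 in 2 of 2 (1.11). Sgk1 was higher in 8 of 12 (0.17), Tsc22d3 in 3 of 8 (−0.06), Etnppl in 2 of 3 (0.30) and Nr3c1 in 3 of 12 (−0.12). These are signs of the estimate and not calls.

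Near the threshold, granule cells had Zbtb16 at 4.6, 5.67, 5.39 and 9.14 CPM in fl EAE and 43.3, 25.8, 8.12 and 24.8 CPM in NestinCre EAE, overlapping through NestinCre EAE 3. This was a log2 difference of 2.06 ± 0.44 (SE, adjusted p = 0.0517). Fkbp5 in granule cells was at 8.99, 11.8, 9.87 and 7.63 CPM in fl EAE and 28.9, 24.4, 12.1 and 17.0 CPM in NestinCre EAE, with no overlap (1.10 ± 0.24, adjusted p = 0.0537). Granule cells were the most deeply sampled class, with 102487 nuclei. Marker RNA of infiltrating cells was also present in this class, at levels given below.

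**Figure D4:**
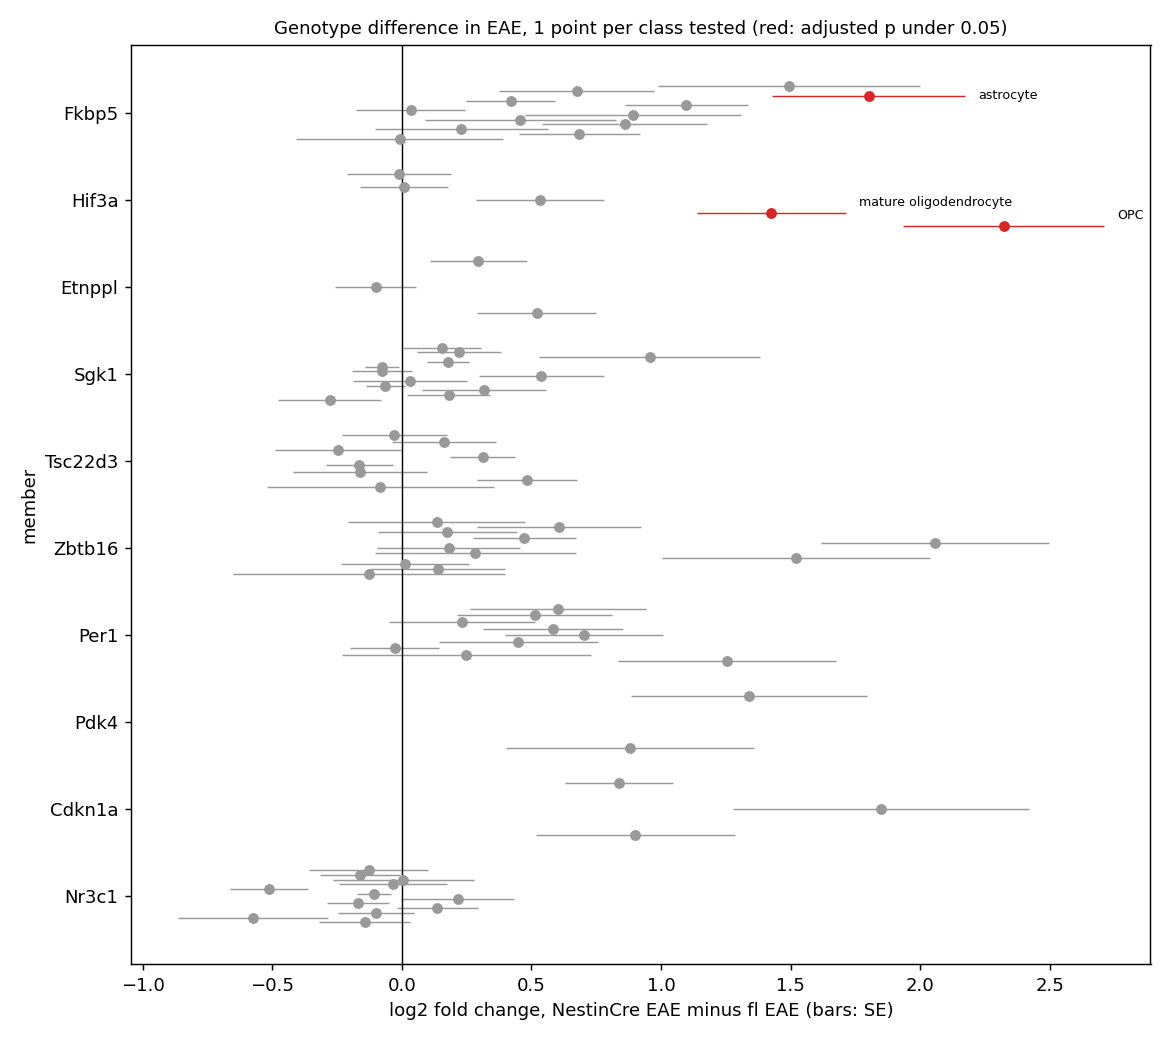
Log2 fold change of NestinCre EAE over fl EAE (x axis, bars SE, 4 mice per group) for each gene (y axis), 1 point per class tested; red points have an adjusted p under 0.05 and are named. OPC is oligodendrocyte progenitor cell. Most Fkbp5 and Per1 points are right of 0, and most Nr3c1 points left of it.

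Nuclei of infiltrating cells were more numerous in the NestinCre EAE libraries, which was not tested. Nuclei called infiltrating phagocyte numbered 11, 5, 20 and 22 in fl EAE and 152, 97, 125 and 31 in NestinCre EAE, and neutrophil nuclei 6, 3, 6 and 8 against 135, 50, 57 and 10. Their marker RNA was present in other classes too. The summed level of 7 infiltrating phagocyte markers was 0 to 8.84 CPM in astrocytes of fl EAE and 17.4 to 84.1 CPM in those of NestinCre EAE (F10 at 0 in all). In oligodendrocyte progenitor cells it was 11.1 to 17.7 and 8.69 to 99.4 CPM, and in mature oligodendrocytes 7.36 to 15.7 and 19.9 to 120 CPM. In granule cells it was 5.09 to 17.8 and 19.2 to 112 CPM. The sum of neutrophil markers was 3.43 to 9.73 and 13.9 to 23.8 CPM in astrocytes and 2.77 to 11.3 and 0 to 38 CPM in progenitors. It was 5.38 to 9.42 and 11.1 to 84.3 CPM in mature oligodendrocytes and 6.59 to 8.96 and 13.4 to 76.1 CPM in granule cells.

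Hif3a itself was at 4.77 CPM in the pooled infiltrating phagocytes and at 8.29 CPM in neutrophils, below its level in both oligodendrocyte classes of every NestinCre EAE library. Fkbp5 was at 531 and 539 CPM in these cells, above its level in astrocytes and granule cells. In microglia Fkbp5 was at 754, 601, 312 and 776 CPM in fl EAE and at 1425, 1043, 235 and 600 CPM in NestinCre EAE. Microglia markers summed to 90.2 to 175 CPM in astrocytes of fl EAE and 118 to 181 CPM in those of NestinCre EAE. In granule cells they summed to 133 to 162 and 145 to 171 CPM. The part of RNA from infiltrating cells or microglia in the Fkbp5 differences of astrocytes and granule cells was not tested. As for RNA from astroglia, the median Bergmann glia marker stood in progenitors at 3.61%, and in mature oligodendrocytes at 3.56%, of its level in Bergmann glia over all libraries. Mean Hif3a in fl EAE was 266 CPM in Bergmann glia, 14.2 CPM in progenitors and 37.3 CPM in mature oligodendrocytes. In NestinCre EAE it was 259, 65.5 and 100.5 CPM, and in naive mice 185, 3.76 and 15.5 CPM. The part of carried-over RNA in the Hif3a differences was not tested.

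Whether the genotype difference changed between EAE and naive was tested as an interaction over all 11 libraries, with a single NestinCre naive mouse. With the run in the model, the naive genotype difference rested on NestinCre naive 2 against fl naive 3, both of run 3. Fl naive 2 did not inform it, and the SE came from the EAE mice alone. By edgeR's quasi-likelihood test 0 of 92 pairs were called, and 13 had an unadjusted p below 0.05 (14.1%, compared with 4.80% of all pairs). DESeq2 called 0, and 0.00296% of all genes were called. For Hif3a in mature oligodendrocytes the interaction was 2.20 ± 0.70 (SE, log2 scale, adjusted p = 0.851), and for Fkbp5 in astrocytes 0.14 with a 95% interval of −2.85 to 3.12. These intervals do not show that the genotype differences were alike in EAE and naive mice, nor that they were particular to EAE.

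Other genes of the pathway were counted from lists, by class, in the same fits. Of 28 other glucocorticoid-induced genes, 9 of 153 pairs were higher and 0 lower in NestinCre EAE, with a median of 0.26. The rates for all genes and classes stated above, 1.01% called and 0.826% called higher, are the background of this and the following counts. Within classes, 6.56% of genes were called in microglia, 1.76% in mature oligodendrocytes, 0.84% in oligodendrocyte progenitor cells and 0.626% in astrocytes. The rates within granule cells and within molecular layer interneurons are not given here. The metallothionein Mt1 was higher in astrocytes (log2 fold change 0.91), oligodendrocyte progenitor cells (0.94) and microglia (0.86), and Mt2 in granule cells (0.87). Cebpb, a transcription factor of acute-phase and myeloid genes, was higher in granule cells (1.35), mature oligodendrocytes (1.65) and microglia (0.96). Lcn2, a neutrophil and acute-phase protein, was higher in granule cells (3.49), and Mfsd2a, a lipid transporter, in mature oligodendrocytes (1.07). Mt1, Mt2, Cebpb and Lcn2 are also induced by inflammation. Lcn2 in granule cells was at 0.23 to 1.13 CPM in fl EAE and at 16.7, 4.30, 6.25 and 1.42 CPM in NestinCre EAE 1 to 4. Neutrophil markers in granule cells summed to 76.1, 33.8, 41.7 and 13.4 CPM in those 4 libraries. The part of carried-over RNA in these list calls was not tested.

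In 16 genes of the corticosteroid receptor machinery, 0 of 167 pairs were higher and 2 lower in NestinCre EAE, with a median of −0.10. Both were co-chaperones in microglia, St13 (−0.71) and Stip1 (−0.73), in the class with the high rate just given. Of 14 clock genes, 1 of 135 pairs was lower, Arntl in granule cells (−0.41), which is near that background. Immediate early genes, which respond to neuronal activity and to growth factors, had 4 of 27 pairs higher and 0 lower, with a median of 0.76. These were Egr1 in granule cells (0.68) and molecular layer interneurons (1.75), and Junb in microglia (1.12) and molecular layer interneurons (1.52). Of p53 target genes 0 of 63 pairs were called, and of hypoxia and fasting genes 1 of 46, Ucp2 in granule cells (1.93, higher).

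In EAE against naive, 3 of 194 pairs of other glucocorticoid-induced genes were higher and 0 lower, where 0.108% of all genes were called and 0.037% called higher. They were Glul, glutamine synthetase, in astrocytes (2.01), and Bcl6 (1.94) and Klf15 (2.39), both transcription factors, in mature oligodendrocytes. This fit again tied EAE to naive mice through fl naive 2. Glul was at 120.6 CPM there but at 291 and 335 CPM in fl naive 3 and NestinCre naive 2, within the range of the EAE libraries (267 to 557 CPM). Bcl6 was at 11.0, 25.6 and 19.2 CPM in naive mice and at 25.3 to 53.4 CPM in EAE, overlapping through fl naive 3. Klf15 was at 8.77, 18.5 and 17.6 CPM in naive mice, below all 8 EAE libraries (21.1 to 46.7 CPM). The other lists had 0 called in that contrast, and all lists had 0 in the interaction.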

How the data were processed

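UMI counts per gene and barcode were deposited by the authors as matrices, with Cell Ranger 6.0.2 and GRCm39 named in the submitters' processing notes. The file headers name Cell Ranger 7.0.0 for run 1 and 6.0.2 for runs 2 and 3. Barcodes with at least 200 (run 1) or 500 genes and under 5% mitochondrial UMIs were kept, and 29750 barcodes were removed as likely doublets (scrublet in scanpy 1.11.5). Nuclei were clustered without the 10 genes and the gene lists and named from markers, with naming settings set after the clusters were seen. UMIs were summed per mouse and class and tested with edgeR 4.0.16 (TMM, filterByExpr, quasi-likelihood, Benjamini-Hochberg within a class, threshold 0.05) in R 4.3.3, with the run as covariate. DESeq2 1.42.0 was an alternative. P-values measure the spread between mice. In the fits over all 11 libraries with the run term, that spread came from the EAE mice alone. A pseudocount of 1 CPM was used for log levels. The scripts were tested on simulated data. All 10 genes, the lists and the classes to describe were chosen with earlier results of these data known. Levels were printed for each gene in its highest class and wherever it was called for genotype. Of list genes, up to 3 called genes per class were named. Etnppl, Pdk4, Cdkn1a and Hif3a were filtered out of most neuronal classes, and each gene is counted over the classes where it passed. Genome sequence and gene coordinates were read from GRCm39 with GENCODE M39.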

Additional observations from a re-analysis of the deposited data

How the results depend on the processing

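For the genotype in EAE, 3 pairs were called in the fit as reported, 5 by DESeq2, 11 when every gene with at least 1 count was tested, and 1 to 7 when 1 library was left out (1 without fl EAE 3, 7 without NestinCre EAE 3). For EAE against naive the count was 5, against 14 with every gene of at least 1 count, 11 without the run term, 3 when adjusted over all classes together (chosen after the data had been seen) and 4 to 9 with 1 library left out (9 without NestinCre EAE 1, 8 without NestinCre EAE 3). The interaction had 0 calls, 0 in each leave-one-out fit and 2 with every gene of at least 1 count. The causes were not tested. Leaving out fl naive 2, fl naive 3 or NestinCre naive 2 with the run in the model could not be fitted, so 8 of 11 leave-outs were run there.

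Over all pairs, the direction for genotype was the same as reported in 63 of 77 without NestinCre EAE 1. For EAE against naive it was the same in 84 of 92 without the run term, in 77 of 92 with fl naive 2 left out as well, and in 83 of 92 without NestinCre EAE 4. Among the pairs named in the text, those that reversed were genotype estimates near 0. With nuclei of 6000 or more UMIs left out, the log2 fold changes were 0.10 for Fkbp5 and 0.013 for Zbtb16 in vascular cells or fibroblasts, 0.077 for Hif3a and 0.010 for Tsc22d3 in Bergmann glia and 0.0017 for Sgk1 in molecular layer interneurons. In run 1 alone they were 0.015 for Etnppl in astrocytes and 0.074 for Tsc22d3 in Bergmann glia, and by DESeq2 0.0034 for Hif3a in Bergmann glia. Leave-one-out ranges were −0.21 to 0.014 for Etnppl in astrocytes, −0.24 to 0.25 for Fkbp5 and −0.76 to 0.32 for Zbtb16 in vascular cells or fibroblasts, and −0.12 to 0.12 for Hif3a and −0.17 to 0.082 for Tsc22d3 in Bergmann glia.

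Replicate numbers 1 to 3 are shared by both EAE groups, but the labels do not say that they tie animals together. Correlations of same-numbered deviations ran from −0.212 to 0.308 over 42 comparisons, with 6 over 0.1. In granule cells 1 of 4 replicates correlated best with its own number. The highest value was for number 2 in granule cells, where numbers 1 and 3 were at −0.212 and −0.137. Such correlations cannot show whether animals were paired. With a replicate block in place of the run, 3 pairs were called, namely Fkbp5 in astrocytes (1.70, adjusted p = 0.00634) and Hif3a in mature oligodendrocytes (1.40, 0.00812) and in oligodendrocyte progenitor cells (2.24, 1.32e-04). Hif3a in oligodendrocyte progenitor cells did not pass the filter on low counts, and so had no value, in run 1 alone and without NestinCre EAE 4. The adjusted p of Fkbp5 in astrocytes ran from 1.24e-04 to 0.129 over leave-one-out fits. Thin classes (astrocytes 49 to 191 nuclei per library) limit what the tests could detect.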
